A study of Mus musculus with 13 samples.

Results

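Prostaglandins are lipid mediators made from arachidonic acid, and 8 genes of their synthesis, breakdown and sensing were followed here in mouse endothelial cells (ECs). The genes were Pla2g4a, Ptgs1, Ptgs2, Ptges, Ptgis, Ptgr1, Hpgd and Ptger4. They were picked by symbol, out of 24984 genes listed for tumor ECs and 24421 listed for sprout ECs, because Pla2g4a and Ptgr1 were low in Apelin-depleted tumor ECs. All 8 were listed in every count file. The tumor values of these genes are therefore a description without a test between groups, and the sprout libraries, which the choice did not use, carry the tests.

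Tumor ECs were sorted from E0771 mammary tumors, grown in C57BL6/J mice, in batches of 100 cells that were CD31+ and CD105+ and lacked CD45, the surface marker of leukocytes. In the Apelin-depleted group (n = 3) the host was Apln-/-, by germline deletion, and the E0771 cells carried shApln. In the Apelin wild-type group (n = 6) the host was wild-type and the E0771 cells carried shRenilla, a control hairpin. Host and tumor cells thus lost Apelin together, and both groups had tumor cells with a hairpin. CD31+ sprout ECs came from embryoid bodies (EBs) of female mouse embryonic stem cells on C57BL/6x129, given VEGFA164 at 30 ng/ml in collagen from day 8. STOP libraries (n = 2, labelled sense) carried a disrupting gene trap in Apln and received DMSO. GO libraries (n = 2, labelled antisense) came from sister cells with the trap inverted by Cre, and received Apelin at 1000 nM. Trap, Cre and peptide therefore differ together. Which EBs received Apelin was taken from the study's text, since the labels give the treatments without assigning them. The labels number the libraries as replicates without naming separate animals or cultures, so p-values cover the spread between libraries, which may be technical.

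Cytosolic phospholipase A2, encoded by Pla2g4a, frees arachidonic acid from membrane lipids. The cyclooxygenases COX-1 and COX-2 (Ptgs1 and Ptgs2) turn it into prostaglandin H2, and terminal synthases such as microsomal prostaglandin E synthase (Ptges) and prostacyclin synthase (Ptgis) make the final products. Prostacyclin is the classic product of vascular endothelium and relaxes vessels and restrains platelets. Taken up by the transporter Slco2a1, prostaglandins are inactivated by 15-hydroxyprostaglandin dehydrogenase (Hpgd) and then reduced by Ptgr1. Ptger4 encodes the prostaglandin E2 receptor EP4.

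Total counts were 4661044 to 14455093 in tumor libraries and 12327030 to 16804071 in sprout libraries. Values are given as CPM, counts scaled to library size after TMM normalization. A count of 3 was taken as the floor below which a gene cannot be told from one without reads, and equalled 0.211 to 0.596 CPM in tumor and 0.177 to 0.244 CPM in sprout libraries. These floors cover counting error only. Apln itself had 20 to 121 counts in Apelin-depleted and 4262 to 6619 in wild-type tumor libraries, but 976 and 984 counts in STOP against 986 and 817 in GO, so the sprout groups are given by label. The 12 endothelial marker genes were counted in every library. Their sum was 8615 to 15784 CPM in tumor ECs, against 704 and 928 CPM in STOP and 2786 and 2610 CPM in GO. In the sprout ECs, 7 pluripotency genes summed to 4829 and 4817 CPM in STOP and 1780 and 2994 CPM in GO, beside the endothelial transcripts. Which of the sorted cells carried them was not tested. In such bulk libraries, fewer cells of a type and less RNA per cell cannot be told apart.

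All 8 genes lie on mouse autosomes (GENCODE M21, GRCm38, the mm10 assembly of the files). Pla2g4a at chr1:149829618-149961290, on the minus strand, and Ptgs2 at chr1:150100031-150108227, on the plus strand, are transcribed away from each other across a gap of 138.7 kb with 0 protein-coding genes in it. Ptgr1 lies at chr4:58965439-58987119 on the minus strand. Ptgs1 (36230426 to 36252272), Ptges (30889471 to 30929863) and Ptgis (167191805 to 167240604) are on chromosome 2, Hpgd (56294585 to 56321043) on 8 and Ptger4 (5206661 to 5244187) on 15. Hpgd is on the plus strand, as is Ptgs1, and Ptges, Ptgis and Ptger4 are on the minus strand. Exons of Ptger4 share 82 bases with those of Ttc33 on the other strand, so reads there are uncertain where counting ignored strand.

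Promoter windows, 250 bases before to 50 after the start site, were found in RefSeq (GRCm38.p6) for 7 of the 8 genes. Shown 5′ to 3′ on the gene's strand are Pla2g4a (chr1:149961241-149961540) and Ptgr1 (chr4:58987029-58987328), which were low together in Apelin-depleted tumor ECs, and Ptgs2 (chr1:150099781-150100080), which peaked in single libraries. Capitals mark matches on either strand to any of 5 short motifs named after the sequences.
Pla2g4a: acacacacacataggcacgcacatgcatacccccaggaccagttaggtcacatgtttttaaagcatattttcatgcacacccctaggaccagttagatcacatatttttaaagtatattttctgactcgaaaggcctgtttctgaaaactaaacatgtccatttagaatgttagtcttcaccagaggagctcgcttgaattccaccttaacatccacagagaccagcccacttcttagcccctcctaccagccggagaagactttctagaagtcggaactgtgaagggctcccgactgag
Ptgr1: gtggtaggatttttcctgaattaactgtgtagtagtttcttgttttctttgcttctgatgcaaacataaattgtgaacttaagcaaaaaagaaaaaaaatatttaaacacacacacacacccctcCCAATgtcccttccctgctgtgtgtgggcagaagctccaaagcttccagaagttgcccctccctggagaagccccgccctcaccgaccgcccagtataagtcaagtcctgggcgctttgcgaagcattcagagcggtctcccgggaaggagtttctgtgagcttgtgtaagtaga
Ptgs2: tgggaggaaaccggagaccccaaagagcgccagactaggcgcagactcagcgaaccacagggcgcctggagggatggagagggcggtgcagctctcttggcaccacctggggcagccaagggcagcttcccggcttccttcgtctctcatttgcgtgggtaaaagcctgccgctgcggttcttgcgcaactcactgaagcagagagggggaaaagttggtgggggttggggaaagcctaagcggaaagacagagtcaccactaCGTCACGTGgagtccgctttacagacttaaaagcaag
The Ptgs2 window held the E-box motif CACGTG at position 17 after the start site. It overlapped a minus-strand match to TGACG, the core of the cAMP response element, at position 14. Among 32851 promoter windows of the same 300 bases, 7.15% held the E-box and 20.8% that core. Ptgr1 held a CCAAT box, 125 bases before the start site, as did 37.4% of all windows somewhere. The Pla2g4a window shown held none of the 5 motifs. The window of a second listed start site (chr1:149922390-149922689) is not shown, and held a TATA box match 200 bases before and a CCAAT box at position 10 after that site. Of the other 2 motifs, the TATA box TATAAA was in 13.6% of windows. The antioxidant response element core TGACNNNGC was in 12.4%. These matches describe letters and not binding.

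In tumor ECs, Pla2g4a was counted in all 6 wild-type libraries at a low and even level, and all but vanished from the Apelin-depleted ones. It had 1, 1 and 0 counts in Apelin-depleted replicates 1 to 3, each under the floor. In the wild-type libraries it had 23 to 61 counts, or 3.63 CPM at the lowest, 5.02 at the median and 6.95 at the highest. Of the 8 genes it had the lowest coefficient of variation among wild-type libraries, 24.3%. The groups did not overlap. Summed over each group this was 220 against 2 counts, a ratio of 71.2 after scaling to library size. That ratio rests on the 2 depleted counts and is not precise. The fitted log2 fold change was −5.83 (SE, standard error, 1.55), and −5.32 to −6.53 over the alternative settings, a value that depends on the prior count because the depleted libraries are near 0. The sum of 6 neutrophil marker genes was also lower, at 0.122 to 1.53 CPM in depleted libraries, with 2 to 5 genes at 0, against 2.15 to 22.5 CPM in wild-type libraries, with 0 to 3 genes at 0, although the sort left out CD45+ cells. Of 10 fibroblast and mural marker genes, 9 were tested and all 9 had log2 fold changes below 0 (median −2.52, 0 called in edgeR), with sums of 87.9 to 186 CPM in depleted and 86.1 to 5360 CPM in wild-type libraries. Among wild-type libraries, replicate 1 had the highest neutrophil sum and the lowest fibroblast and mural sum, with 5.48 CPM of Pla2g4a. Replicate 2 had the lowest neutrophil sum and the highest fibroblast and mural sum, with 5.96 CPM of Pla2g4a. Ptgr1 stood at 1.64 CPM in replicate 1 and at 12.4 CPM in replicate 2. All 10 macrophage marker genes were tested, and 4 had log2 fold changes below 0 (median 0.57). The part of these marker lists in the Pla2g4a and Ptgr1 levels was not tested.

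Ptgr1, which encodes a reductase of prostaglandin breakdown, was the other gene that led to the choice. Its counts in the Apelin-depleted replicates were 4, 7 and 0, or 0.680, 0.492 and 0 CPM. Wild-type libraries ranged from 1.64 through a median of 11.1 to 20.04 CPM. The lowest of them, replicate 1 with 9 counts, lay close to the depleted libraries, and the other 5 lay at 7.78 CPM or above. The means of 0.391 ± 0.351 (SD, n = 3) and 11.8 ± 7.03 CPM (SD, n = 6) gave a log2 fold change of −4.88 (SE 1.29). Pla2g4a and Ptgr1 were thus the 2 genes of 7 passing the filter on low counts whose depleted libraries all lay below all wild-type libraries. Among all 13073 tested genes this held for 1.27%. As these 2 genes were the reason for the choice, nothing is read from that count, and both passed the filter through their wild-type libraries.

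**Figure D1:**
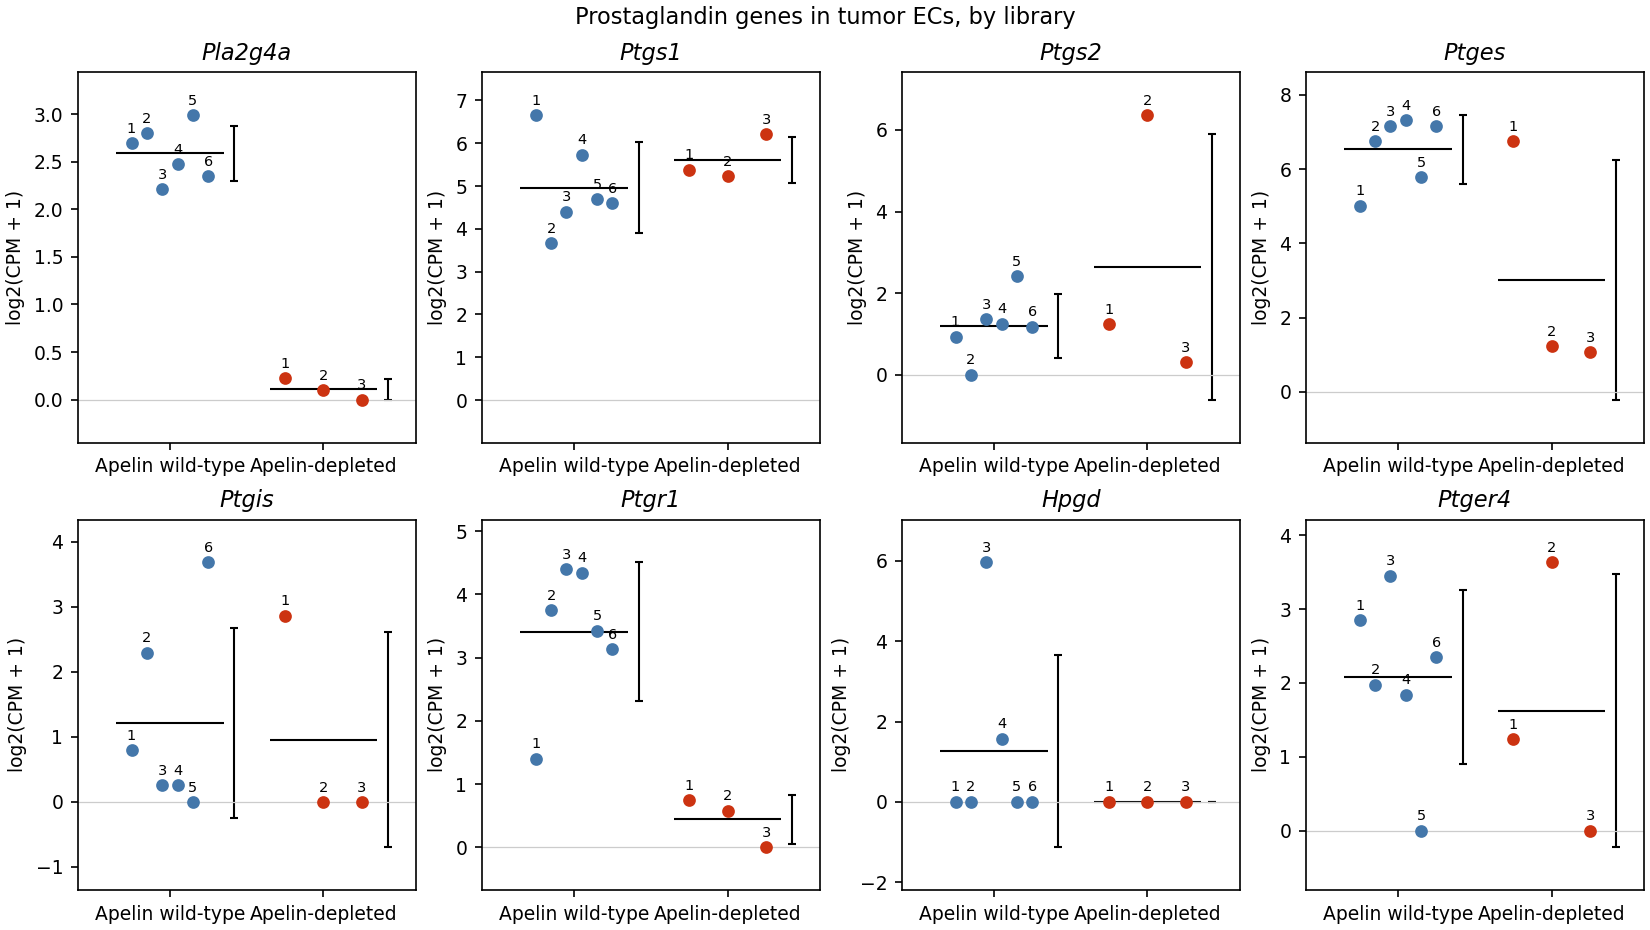
Level of each gene in tumor ECs as log2(CPM + 1) on the vertical axis, by group; points are libraries with their replicate number, lines are means and bars are SDs (n = 6 and n = 3). Pla2g4a and Ptgr1 separate the groups, Ptgs2 is high in Apelin-depleted replicate 2 at 81.5 CPM, and Hpgd is high in wild-type replicate 3 at 61.6 CPM.

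The 2 cyclooxygenase genes behaved differently from the phospholipase. Ptgs1, the constitutive isoenzyme, was present in every tumor library. It stood at 40.6, 36.6 and 73.0 CPM in the Apelin-depleted libraries and at 11.7, 24.1 and 100.0 CPM (lowest, median and highest) in wild-type libraries, where replicate 1 was highest. The groups overlapped fully, with a log2 fold change of 0.38 (SE 0.57). Ptgs2, the inducible isoenzyme, was counted 8, 1159 and 2 times in the depleted replicates, so replicate 2 alone reached 81.5 CPM. The other 2 stood at 1.36 and 0.244 CPM, within or near the wild-type range of 0 to 4.34 CPM. Its fitted log2 fold change of 4.13 (SE 1.33) rested on that library and was −0.98 without it.

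The library of each set in which Ptgs2 peaked was also highest in immediate-early genes, transcripts that cells raise within minutes of a stimulus. A list of 8 of these (Fos, Fosb, Jun, Junb, Egr1, Atf3, Ier2 and Nr4a1) was written after the values were seen. It summed to 12986 CPM in Apelin-depleted replicate 2, against 4486 to 7450 CPM in the other 8 tumor libraries. In GO replicate 1 of the sprout ECs it summed to 4429 CPM, against 1144 to 1680 CPM in the other 3. Ptgs2 stood at 94.4 CPM in that library, 4.93 times the next highest sprout library. The next highest tumor sum, 7450 CPM in wild-type replicate 6, came with 1.27 CPM of Ptgs2. The next highest sprout sum, 1680 CPM in GO replicate 2, came with 13.8 CPM of Ptgs2. STOP replicate 2, with a sum of 1397 CPM, held 19.1 CPM of Ptgs2. The part of the immediate-early state in the Ptgs2 level was not tested.

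**Figure D2:**
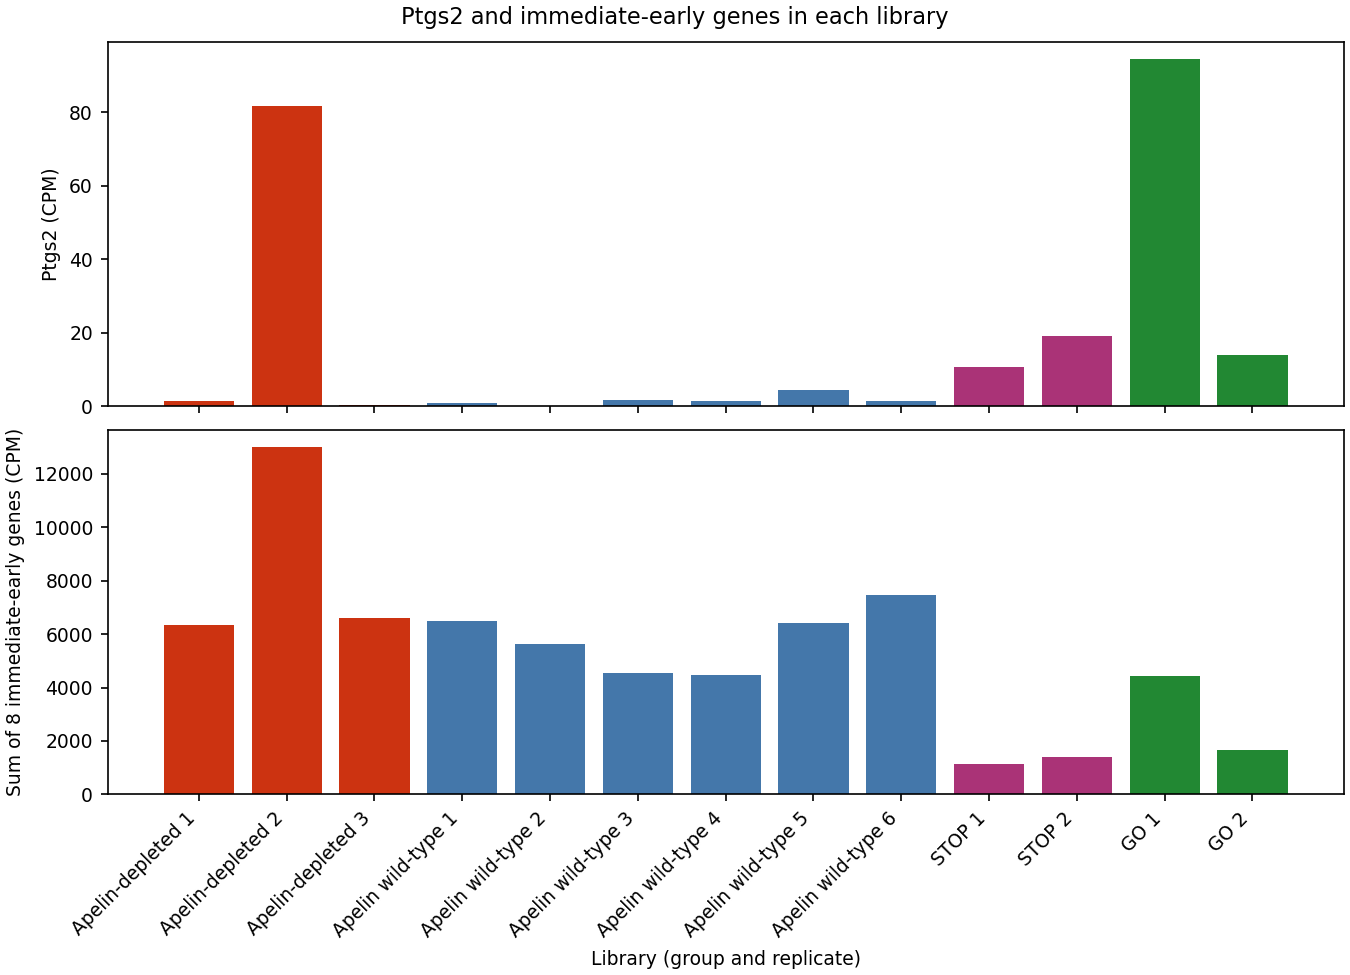
Ptgs2 (top) and the sum of 8 immediate-early genes (bottom), both in CPM, with 1 bar per library colored by group. Apelin-depleted replicate 2 and GO replicate 1 stand out in both panels, with 81.5 and 94.4 CPM of Ptgs2; tumor and sprout libraries were prepared differently and their heights are not compared.

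Of the terminal synthases, Ptges had the highest median of the members in wild-type tumor ECs and was split within the depleted group. Wild-type libraries held 31.4 CPM at the lowest, 124 at the median and 158 at the highest. Apelin-depleted replicates 2 and 3 held 1.34 and 1.10 CPM, below every wild-type library, while replicate 1 held 107 CPM, inside the wild-type range. The log2 fold change was −1.54 (SE 1.37), and −6.41 without that replicate. Apelin-depleted replicate 1 also held the most macrophage marker transcripts, 981 CPM summed over 10 genes, against 8.93 and 61.2 CPM in replicates 2 and 3 and 48.0 to 676 CPM in wild-type libraries. Wild-type replicate 4, the next highest at 676 CPM, held the most Ptges of its group. Wild-type replicates 3 and 6 held 141 and 142 CPM of Ptges with macrophage sums of 48.0 and 56.8 CPM. Macrophages carry CD45, which the sort selected against, and the part of these transcripts in the Ptges level was not tested.

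Ptgis, which makes prostacyclin, was sparse in tumor ECs. Apelin-depleted replicates 1 to 3 held 37, 0 and 0 counts. Wild-type libraries held 0 to 84 counts, and 3 of them were under the floor. Replicate 6 was highest at 11.9 CPM, followed by replicate 2 at 3.91 CPM, the library with the most fibroblast and mural marker transcripts (5360 CPM summed over 10 genes, against 86.1 to 410 CPM in the other 5). The sum in replicate 6 was 112 CPM, and the part of these transcripts in the Ptgis level was not tested. The groups overlapped, with a log2 fold change of −0.45 (SE 1.92). It was −7.53 without Apelin-depleted replicate 1, whose 37 counts were all of that group, and 0.14 and 0.13 without replicates 2 and 3.

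Hpgd, the dehydrogenase that begins prostaglandin breakdown, was found in 2 tumor libraries. Wild-type replicate 3 had 627 counts (61.6 CPM) and wild-type replicate 4 had 10, while the other 4 wild-type and all 3 depleted libraries had 0. It did not pass the filter on low counts, and no fold is given. Ptger4 ranged from 0 to 11.4 CPM in depleted libraries and from 0 to 9.92 CPM in wild-type libraries, each group with 1 library at 0. The groups overlapped, and the highest library was Apelin-depleted replicate 2 with 162 counts. Its log2 fold change was −0.01 (SE 1.46) with that library and −2.67 without it.

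In the sprout ECs, 0 of the 8 genes were called lower or higher in STOP than in GO by edgeR's quasi-likelihood test (adjusted p under 0.05 and a log2 fold change beyond ±1), while 3.03% of 14557 tested genes were lower and 0.852% higher at these thresholds. Before adjustment, 1 of the 8 had a p under 0.05 with a lower level and 0 with a higher one, beside 14.3% and 12.4% of all tested genes. DESeq2 also called 0 of the 8, and 628 lower and 198 higher of 19441 genes in all. By group, 3 of the 8 (Ptgs1, Ptges and Ptgr1) were lower in STOP without overlap and 0 were higher, where 29.6% and 31% of all tested genes were. The median log2 fold change of the 8 was −0.20, and that of all tested genes 0.01.

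The gene with the unadjusted p under 0.05 was Ptgs1, whose product is COX-1. It stood at 9.35 and 12.8 CPM in STOP and at 20.9 and 15.3 CPM in GO, without overlap. The log2 fold change was −0.71 (SE 0.27, 95% interval −1.33 to −0.09, adjusted p = 0.144 in edgeR). Over the same libraries, 11 of 12 endothelial marker genes were decreased past the thresholds, with a median log2 fold change of −1.91. The part of the lower endothelial transcript share in the Ptgs1 difference was not tested.

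Ptgs2 stood at 10.8 and 19.1 CPM in STOP and at 94.4 and 13.8 CPM in GO. GO replicate 2 lay between the 2 STOP libraries. The log2 fold change of −1.87 (SE 1.21, adjusted p = 0.438 in edgeR) rested on GO replicate 1 and was 0.11 without it. Without GO replicate 2 it was −2.66 with an adjusted p of 0.0235 in edgeR, where GO replicate 1 is the lone GO library and the spread comes from the STOP libraries.

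The pair that was low in Apelin-depleted tumor ECs was well counted in both sprout groups. Pla2g4a stood at 9.21 and 17.9 CPM in STOP and at 17.8 and 9.20 CPM in GO, so both groups covered the same range. Its log2 fold change was near 0 with a 95% interval from −1.06 to 1.05 (adjusted p = 0.999 in edgeR). Ptgr1 stood at 15.2 and 14.6 CPM in STOP and at 17.3 and 15.6 CPM in GO. These groups did not overlap, but lay close together, with a log2 fold change of −0.15 (95% interval −0.64 to 0.35, adjusted p = 0.697 in edgeR). The tumor and sprout contrasts differ in tissue, genotype, peptide and library preparation, and their difference was not tested.

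**Figure D3:**
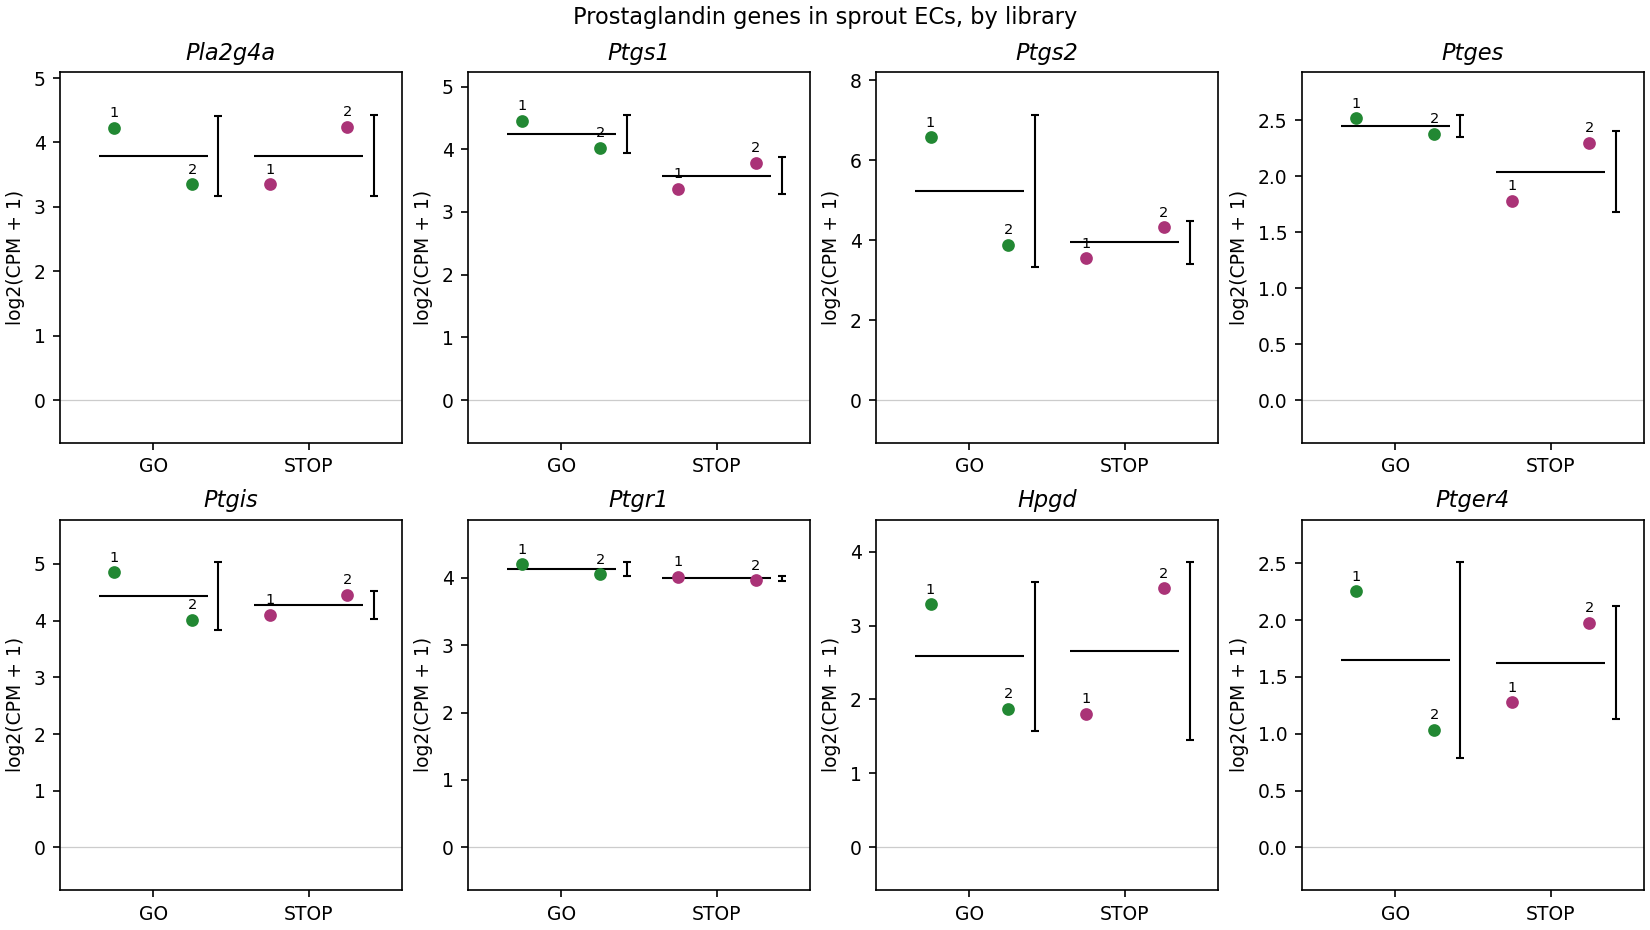
Level of each gene in sprout ECs as log2(CPM + 1) on the vertical axis, by group; points are libraries with their replicate number, lines are means and bars are SDs (n = 2 each). Ptgs1, Ptges and Ptgr1 do not overlap between groups, Ptgs2 is high in GO replicate 1, and Pla2g4a covers the same range in both groups, 9.21 to 17.9 and 9.20 to 17.8 CPM.

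Ptges was scarce in sprout ECs at 2.44 and 3.91 CPM in STOP and 4.72 and 4.20 CPM in GO (log2 fold change −0.50, SE 0.39, adjusted p = 0.444 in edgeR). Ptgis stood at 16.2 and 20.9 CPM in STOP and at 28.0 and 15.2 CPM in GO, with overlap (log2 fold change −0.22, SE 0.31, adjusted p = 0.692 in edgeR). Prostacyclin synthase transcript was thus counted in every sprout library with 188 to 474 counts.

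Hpgd and Ptger4 varied more within the sprout groups than between them. Hpgd stood at 2.51 and 10.3 CPM in STOP and at 8.79 and 2.66 CPM in GO, a log2 fold change of 0.14 with a 95% interval from −2.38 to 2.66. Within STOP it was 4.13 times higher in replicate 2, and within GO 3.30 times higher in replicate 1. Ptger4 stood at 1.42 and 2.93 CPM in STOP and at 3.78 and 1.05 CPM in GO. Its log2 fold change was −0.19 (SE 0.67, adjusted p = 0.882 in edgeR).

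STOP replicate 2 and GO replicate 1 were the higher library of their group for 7 of the 8 members, all but Ptgr1, which was slightly higher in STOP replicate 1. The same held for 27.7% of all 14557 tested genes. The same 2 libraries held the most transcripts of 10 fibroblast and mural marker genes, 3149 and 3255 CPM, against 520 CPM in STOP replicate 1 and 716 CPM in GO replicate 2. The part of these stromal transcripts in the spread of the members between replicates was not tested. All 10 of these markers had counts in all 4 libraries.

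**Figure D4:**
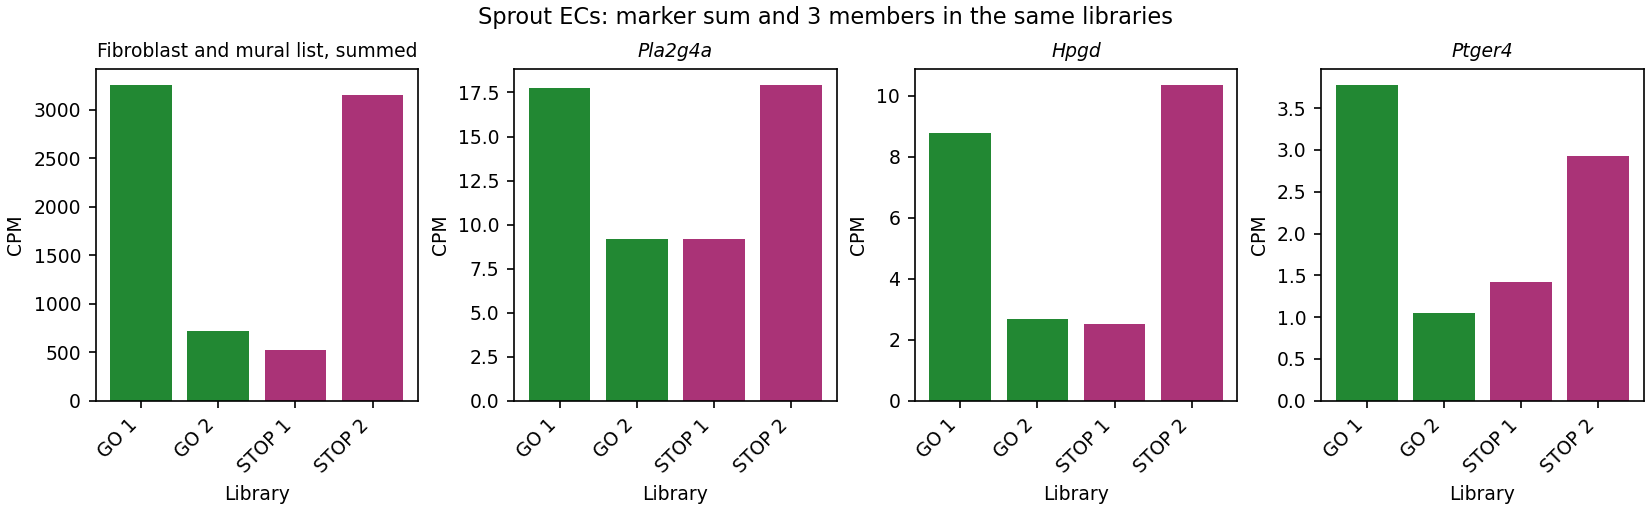
Summed CPM of 10 fibroblast and mural marker genes (left) and CPM of Pla2g4a, Hpgd and Ptger4 in the 4 sprout libraries, with 1 bar per library colored by group. GO replicate 1 and STOP replicate 2 are higher than the other 2 libraries in all 4 panels, for example 3255 and 3149 against 716 and 520 CPM on the left.

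Compared per length, the order of the members within a group differed between tumor and sprout libraries. The measure, the library preparation and the summed endothelial markers differed between them as well. Their part in the order was not tested. In wild-type tumor ECs (CPM per kb of gene length, n = 6) Ptges led with a median of 34.1, followed by Ptgs1 with 8.40 and Ptgr1 with 5.26. Pla2g4a followed with 1.76, Ptger4 with 1.07, Ptgs2 with 0.321, Ptgis with 0.265 and Hpgd with 0. Each neighbour in this order overlapped the next over its libraries. In Apelin-depleted tumor ECs (n = 3) Ptgs1 led with a median of 14.2 CPM per kb, ahead of Ptger4 with 0.415, Ptges with 0.367 and Ptgs2 with 0.328. Ptgs1 did not overlap Ptger4, but Ptges in replicate 1 (29.4 CPM per kb) and Ptgs2 in replicate 2 (19.7) were above it in those libraries. In GO sprout ECs the deposited TPM, transcript levels scaled for length and library size, averaged 21.0 for Ptgs2, 19.6 for Ptgis, 12.4 for Ptgr1 and 9.69 for Ptgs1. Pla2g4a at 7.51, Hpgd at 5.58 and Ptges at 2.52 TPM followed, and Ptger4 was lowest at 1.22 TPM. The first rank of Ptgs2 rested on GO replicate 1 (37.2 TPM), since in GO replicate 2 its 4.81 TPM was below Ptgis, Ptgr1 and Ptgs1. Among these neighbours Ptges and Ptger4 alone did not overlap. In STOP sprout ECs Ptgis led at 14.9 TPM, above Ptgr1 at 9.99 without overlap, and Ptges at 1.63 and Ptger4 at 0.920 TPM were again lowest.

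The other 32 genes of a prostanoid pathway list held phospholipases, synthases, transporters and receptors. In tumor ECs 17 of them were tested, and 0 were decreased and 0 increased past the thresholds in edgeR, where 0.00765% of all genes were decreased and 0% increased. Before adjustment, 2 had a p under 0.05 with lower and 2 with higher levels, beside 2.94% and 1.87% of all tested genes. DESeq2 called 0 of them, and 97 lower and 19 higher of 21887 genes in all. The 2 lower genes, Pla2g10 and Hpgds, had 0 counts and at most 1 count in each depleted library and passed the filter on low counts through wild-type libraries alone, so nothing is read from their count. For Hpgds, 310 counts were in wild-type replicate 3 and at most 21 in any other library. The median log2 fold change was 0.02. In sprout ECs 20 were tested and 0 were called in either direction by edgeR, beside 3.03% and 0.852% of all tested genes. Before adjustment, 4 with lower and 3 with higher levels had a p under 0.05, beside 14.3% and 12.4% of all tested genes, and the median was 0.02. DESeq2 called 2 lower, Tbxa2r and Slco2a1, and 0 higher, where it called 628 of 19441 genes lower and 198 higher. With no filter on low counts edgeR called the same 2, and 632 lower and 222 higher of 19441 genes in all.

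Slco2a1 encodes the transporter that takes prostaglandins into cells for breakdown. It stood at 294, 268 and 245 CPM in Apelin-depleted tumor ECs, and at 49.1, 102 and 199 CPM (lowest, median and highest) in wild-type ECs. Every depleted library lay above every wild-type library, as held for 1.06% of tested genes. The log2 fold change was 1.21 (SE 0.37) with an adjusted p of 0.906 in edgeR, so the gene was not called. The sum of the 12 endothelial markers was also higher, 12066 to 15784 CPM in depleted against 8615 to 13081 CPM in wild-type libraries, and its part was not tested. In sprout ECs Slco2a1 stood at 4.47 and 3.18 CPM in STOP and at 12.9 and 7.67 CPM in GO, a log2 fold change of −1.43 (SE 0.36) that narrowly missed the threshold in edgeR (adjusted p = 0.0587) and passed it in DESeq2 (adjusted p = 0.0169).

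Tbxa2r, the receptor of thromboxane A2, showed a similar picture at lower counts. In STOP it stood at 1.76 and 1.63 CPM and in GO at 4.72 and 5.41 CPM, with little spread within a group. The sum of 5 platelet marker genes was lower as well, 9.35 and 3.99 CPM in STOP against 21.9 and 32.1 CPM in GO, and its part was not tested. The log2 fold change was −1.57 (SE 0.38, adjusted p = 0.0507 in edgeR and 0.0293 in DESeq2). In tumor ECs it had 31.3, 10.3 and 84.3 CPM in depleted and 0 to 21.7 CPM in wild-type libraries, with overlap (log2 fold change 2.24, SE 1.00, adjusted p = 1.00 in edgeR), and its log2 fold change was 1.22 without Apelin-depleted replicate 3. In tumor ECs the platelet sum was 4.43 to 42.6 CPM in depleted and 3.82 to 78.2 CPM in wild-type libraries. Apelin-depleted replicate 3 was the highest of its group in both the platelet sum and Tbxa2r. Wild-type replicate 3, with the highest platelet sum, held 1.67 CPM of Tbxa2r. When sprout libraries were scaled to the 12 endothelial markers instead, the log2 fold changes of Slco2a1 and Tbxa2r in STOP became 0.36 and 0.18 (adjusted p = 0.441 and 0.760 in edgeR), while the median of all tested genes became 1.75.

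Of the remaining named genes, Ptger1, which encodes the prostaglandin E2 receptor EP1, was near the floor in sprout ECs with 7 and 2 counts in STOP and 18 and 11 in GO (log2 fold change −1.55, SE 0.69, adjusted p = 0.198 in edgeR). This was −2.51 without STOP replicate 1 and −1.05 without STOP replicate 2. In tumor ECs it stood at 16.8 to 33.8 CPM in depleted and 18.4 to 33.9 CPM in wild-type libraries. Pla2g10, a secreted phospholipase A2, had 0 counts in all 3 depleted libraries and 0 to 29 in wild-type libraries, of which 2 were also at 0. In sprout ECs it stood at 13.5 and 14.3 CPM in STOP and at 4.78 and 10.01 CPM in GO (log2 fold change 0.92, SE 0.36, adjusted p = 0.159 in edgeR). Without GO replicate 1 it was 0.47, and without GO replicate 2 it was 1.54 with an adjusted p of 0.0365 in edgeR, past both thresholds. With 1 GO library left, that fit takes its spread from the STOP libraries and assumes that the lone library varies like them.

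**Figure D5:**
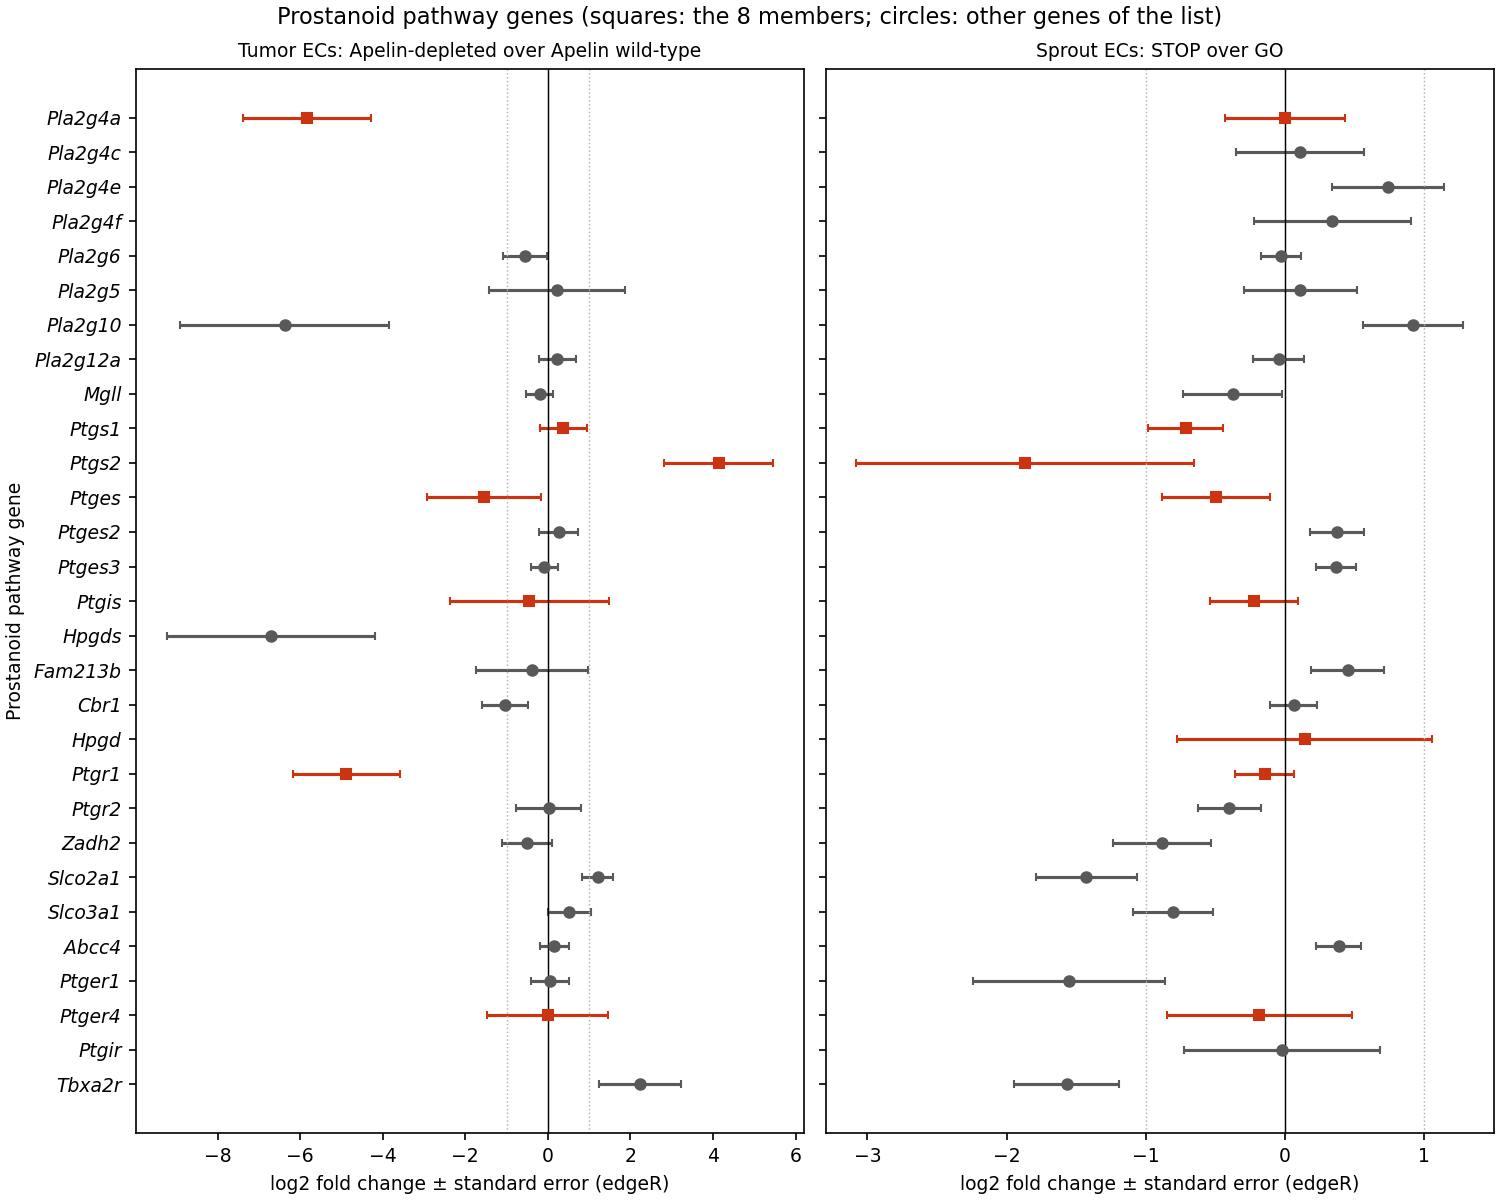
Log2 fold change with its standard error for each tested gene of the prostanoid pathway list, in tumor ECs (left, Apelin-depleted over wild-type) and sprout ECs (right, STOP over GO), on separate horizontal scales; squares are the 8 members, circles the other genes and dotted lines a change of 1. Pla2g4a and Ptgr1 lie at −5.83 and −4.88 on the left and near 0 on the right; the far values of Pla2g10 and Hpgds rest on depleted libraries with at most 1 count.

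The genes most alike in pattern were sought over the 9 tumor libraries among 9286 genes with a mean of at least 10 CPM. Likeness was the root mean square difference of the centred log2(CPM + 1) profiles, which includes the group difference that led to the choice. For Pla2g4a, whose own profile spans 2.99, the closest were Ccnd2, Epb41l1 and Klhl42 with differences of 0.54, 0.57 and 0.57. Their log2 fold changes of −1.72, −2.27 and −1.66 were far smaller than the −5.83 of Pla2g4a. They held up to 143, 6.46 and 5.70 CPM in a depleted library, where Pla2g4a held at most 0.170 CPM. The 1 added to CPM compresses the profile of a gene as low as Pla2g4a. For Ptgr1, whose profile spans 4.39, they were Ereg with 0.47, Bag2 with 0.67 and Casc4 with 0.68. Ereg, which encodes the growth factor epiregulin, held at most 1.19 CPM in a depleted library and at least 2.01 CPM in a wild-type library. Bag2 and Casc4 held up to 2.21 and 3.57 CPM in a depleted library.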

How the data were processed

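RNA-Seq was measured in 13 libraries of sorted mouse ECs. For tumor ECs (Smart-Seq2) the authors deposited featureCounts counts (Subread 1.6.2, mm10). The study's methods name STAR as aligner, while the submitters' processing notes list Trim Galore 0.5.0 and Bowtie2 2.3.4.1. For sprout ECs the authors deposited HTSeq 0.6.1p1 counts after STAR 2.5.0a alignment, and RSEM 1.2.25 expected counts and TPM. The closing lines of the HTSeq files, which name no gene, held 54.1% to 59.1% of tallied reads and were left out.

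Counts were TMM-normalized, filtered (filterByExpr, minimum count 10) and fitted with edgeR 4.0.16 under R 4.3.3 by a robust quasi-likelihood test for each set of ECs, with Benjamini-Hochberg adjustment over all tested genes. Genes were called at an adjusted p under 0.05 and an absolute log2 fold change over 1. CPM per kb used RSEM gene lengths. The fits were tested on simulated data.

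Alternatives were DESeq2 1.42.0, its size factors in edgeR, other filters, the replicate number as a block, RSEM expected counts rounded to whole numbers, scaling to 12 endothelial markers, no fold threshold and each library left out. Named were the 8 members, pathway genes past the thresholds, the 3 other pathway genes with the largest absolute log2 fold change in each set (mean of at least 5 CPM in either set) and the 3 genes most like Pla2g4a and Ptgr1. The members, lists and tests were chosen with earlier results of these data known.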

Additional observations from a re-analysis of the deposited data

Results flagged for a closer look

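Among the 6 wild-type tumor libraries, Hpgd in replicate 3 stood apart from the rest. On the log2(CPM + 1) scale its gap to the next library was 0.736 of the whole range of the group, above Dixon's limit for 6 values, which compares libraries within the group and not between groups. That library held 627 counts, replicate 4 held 10 and the other 4 held 0. For normally distributed values, chance alone flags about 1 in 20 groups, and 12 genes were examined. That rate does not hold for a gene with 0 counts in most libraries, so the flag is a description only.

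The log2 fold changes of Slco2a1 had opposite signs in the 2 kinds of ECs, and neither was called in edgeR (adjusted p = 0.906 and 0.0587). The log2 fold change was 1.21 in tumor ECs, where all 3 Apelin-depleted libraries were higher than all 6 wild-type libraries (as for 1.06% of tested genes), and −1.43 in sprout ECs, where both STOP libraries were lower than both GO libraries (as for 29.6%). The difference itself was not tested.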

How the results depend on the processing

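Counts of members and pathway genes were recomputed under the alternatives that apply to them. Of the resulting values, 97 kept to within 1.5 times the main one and 9 moved further. Every main count was 0, except that of tumor members without overlap and lower. Most of the 97 thus set 0 beside 0, and nothing is read from this tally. The 9 that moved were all sprout counts. Tumor counts of other pathway genes past the thresholds were 0 in every setting. The tumor count of members without overlap held Pla2g4a and Ptgr1, the reason for the choice. Nothing is read from the steadiness of these tumor counts. In sprout ECs, 0 other pathway genes were called lower, against 2 with DESeq2, 2 without a filter on low counts and 2 with the replicate block crossed. The crossed block was chosen after seeing the data, because same-numbered sprout libraries deviated in opposite directions (correlation −0.39), and it gave 933 lower and 302 higher calls over all genes. The replicate numbers do not pair the libraries (tumor correlations −0.11 to 0.05). With the replicate block as labelled, sprout calls over all genes were 41 lower and 3 higher, against 441 and 124, and Pla2g4a reversed to 0.00063. It was 0.0020 without a filter and 0.0078 with the crossed block, all near 0. With each library left out in turn, 0 to 1 pathway genes were called lower and 0 to 1 higher, which was Pla2g10 without GO replicate 2, and 0 to 1 members lower, which was Ptgs2 without GO replicate 2. That fit called 546 lower and 341 higher of 15148 genes, and the other fits with a library left out called 135 to 548 lower and 12 to 120 higher. Over the same fits, log2 fold changes in sprout ECs reversed for Pla2g4a (−0.57 to 0.56), Ptger4 (−0.80 to 1.03), Hpgd (−1.22 to 1.26), Ptgs2 (−2.66 to 0.11) and Ptgis (−0.59 to 0.29), and in tumor ECs for Ptger1 (−0.24 to 0.26), Ptgs2 (−0.98 to 4.75), Ptger4 (−2.67 to 0.58) and Ptgis (−7.53 to 0.14). Scaling sprout libraries to the endothelial markers moved the median of all genes to 1.75 and the calls to 17 lower and 12453 higher, with 7 members and 15 other pathway genes called higher. Pla2g4a then stood at 1.70, Ptgs1 at 1.01, Ptgs2 at −0.13, Ptges at 1.21, Ptgis at 1.52, Ptgr1 at 1.61 and Ptger4 at 1.53. Tbxa2r stood at 0.18, Slco2a1 at 0.36 and Ptger1 at 0.20. All of these lay below that median, while Hpgd at 1.80 and Pla2g10 at 2.65 lay above it. In tumor ECs this scaling moved the median of all genes to −0.45 and Ptger1 to −0.31. With the replicate block the tumor values were 1.26 for Ptgs2, −4.80 for Ptges, −2.56 for Ptgis and −2.20 for Ptger4, against 4.13, −1.54, −0.45 and −0.01. The causes were not tested. With 3 or fewer counts per library, Pla2g4a in Apelin-depleted and Hpgd in most tumor libraries lay under what the depth can resolve.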
